A study of Caenorhabditis elegans with 2 samples.

Results

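The binding of SNPC-4, tagged with eGFP, was profiled by chromatin immunoprecipitation and sequencing (ChIP-seq) in whole young adult Caenorhabditis elegans, and the peaks that were strong in replicate 1 but had no strong counterpart in replicate 2 are described here. Each replicate's relaxed list on genome build ce11 was sorted by the authors' signal value and reduced to its strongest peaks, as many as the authors' optimal list holds. The peaks were chosen by these measured values: a replicate 1 peak was taken when no summit among the strong replicate 2 peaks lay within 200 bp of its own summit. This rule took 921 of the strong replicate 1 peaks (51.7%), left the other 860 as shared with replicate 2, and set 937 strong replicate 2 peaks apart in the mirror direction. The study held 1 group of 2 biological replicates of strain OP179, which carries unc-119(ed3) on chromosome III and the integrated transgene wgIs179, as animals of mixed sex. Both replicates share that transgene and mutation. The tagged protein comes from the transgene, whole animals were used, so that no peak can be placed in a tissue, and no untagged or control library was analysed here. The replicate 1 signal and the absence of a strong replicate 2 summit chose these peaks, so both are given as description only.

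SNPC-4 belongs to SNAPc, a complex that binds the promoters of small nuclear RNA (snRNA) genes and brings in the polymerase that transcribes them. In the C. elegans germ line SNPC-4 also acts, with PRDE-1, at the genes of Piwi-interacting RNAs, which are called 21U-RNAs in this species. These are mostly very short separate transcription units, crowded into large clusters of chromosome IV and interleaved with ordinary genes, and many carry a core motif, CTGTTTCA, a short way upstream of the 5' end of the RNA.

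The sequences of 6 of the 921 peaks are shown because they hold both kinds of place where these peaks lay: 21U-RNA clusters, and scattered sites elsewhere. Each runs from 100 bp before the summit to 100 bp after it, on the plus strand of ce11, read from the RefSeq genome of that assembly. Capitals mark the core motif on either strand, where TGAAACAG is the motif read from the minus strand. In the last 2 sequences, which lie outside the clusters and lack the motif, the capital is the summit base.
Peak beside 21ur-7044 (chrIV:14390164-14390364): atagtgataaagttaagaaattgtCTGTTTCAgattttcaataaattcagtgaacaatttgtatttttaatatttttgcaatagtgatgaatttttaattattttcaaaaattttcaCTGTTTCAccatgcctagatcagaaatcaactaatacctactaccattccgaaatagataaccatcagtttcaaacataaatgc
Peak beside 21ur-9354 (chrIV:15817602-15817802): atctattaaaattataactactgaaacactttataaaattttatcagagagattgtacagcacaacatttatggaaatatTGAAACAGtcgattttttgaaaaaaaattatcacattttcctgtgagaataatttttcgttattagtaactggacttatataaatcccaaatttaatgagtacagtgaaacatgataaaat
Peak beside 21ur-8610 (chrIV:16982770-16982970): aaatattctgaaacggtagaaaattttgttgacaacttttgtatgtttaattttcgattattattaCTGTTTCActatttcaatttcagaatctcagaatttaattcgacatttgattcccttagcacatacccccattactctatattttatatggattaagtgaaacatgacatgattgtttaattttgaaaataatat
Peak beside 21ur-1120 (chrIV:16208346-16208546): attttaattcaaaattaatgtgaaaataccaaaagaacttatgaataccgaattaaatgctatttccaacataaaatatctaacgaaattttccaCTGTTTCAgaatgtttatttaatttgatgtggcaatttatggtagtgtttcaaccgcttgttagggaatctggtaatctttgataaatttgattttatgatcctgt
Peak beside no gene (chrIV:7039802-7040002): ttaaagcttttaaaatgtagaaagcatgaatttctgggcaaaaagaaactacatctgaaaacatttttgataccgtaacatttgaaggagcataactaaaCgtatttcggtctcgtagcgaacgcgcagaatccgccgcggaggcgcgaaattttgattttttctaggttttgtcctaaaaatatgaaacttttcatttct
Peak beside B0491.t2 (chrII:11334182-11334382): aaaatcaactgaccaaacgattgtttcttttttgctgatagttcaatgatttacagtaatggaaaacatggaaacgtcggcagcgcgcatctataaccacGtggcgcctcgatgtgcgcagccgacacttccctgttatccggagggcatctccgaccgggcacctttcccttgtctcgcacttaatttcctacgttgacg

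All of the first 4 printed peaks lay in the larger 21U-RNA-rich region described below, and they are among the 6 peaks with the core motif of the 20 strongest. The motif was followed on its own strand by an annotated 21U-RNA 5' end at nearly the same distance each time. In the peak beside 21ur-1120, the motif ended 38 bp before the 5' end of 21ur-1120 and 41 bp before that of 21ur-14442. The peak beside 21ur-7044 held 2 motifs, of which one ended 39 bp before 21ur-7044 and the other 40 bp before 21ur-5199. In the peak beside 21ur-8610 the distance to that gene was 38 bp, and in the peak beside 21ur-9354 the motif stood 38 bp from 21ur-3664. Over the 6 peaks the distances ran from 38 to 41 bp. The printed cluster sequences were rich in A and T, with 25.9% G and C beside 21ur-7044 and 23.9% beside 21ur-9354. The 2 peaks outside the clusters had 35.8% at the peak beside no gene and 48.8% beside the tRNA gene B0491.t2.

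The 921 peaks were crowded on chromosome IV. That chromosome held 630 of them (68.4%, 95% Clopper-Pearson interval 65.3 to 71.4%), against 55.6% of all strong replicate 1 peaks, 42.0% of the shared peaks and 35.0% of the replicate 2 only peaks. Such intervals cover the counting of peaks only, because read depth is unknown, and neighbouring peaks are not independent. Chromosomes I, II, III, V and X held between 50 and 65 peaks each, from 2.82 to 4.31 per Mb, whereas chromosome IV held 36 per Mb. Windows of 100 kb with at least 50 annotated 21U-RNA genes formed 2 regions of chromosome IV, a smaller one (IV:4800001-6600000, 17 windows, 2614 such genes) and a larger one (IV:13600001-17300000, 37 windows, 11510 such genes). These windows held 575 of the peaks (62.4%, 59.2 to 65.6%), against 46.3% of all strong replicate 1 peaks.

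The larger and the smaller region differed. The larger region held 551 of the replicate 1 only peaks, or 149 per Mb, beside 54.1 shared and 57.0 replicate 2 only peaks per Mb. The smaller region held 24, or 14.1 per Mb, fewer than its 29.4 shared peaks per Mb but more than its 5.88 replicate 2 only peaks per Mb. Replicate 1 only peaks thus made up 73.4% of the strong replicate 1 peaks of the larger region and 32.4% of those of the smaller region. Outside the windows the share was 36.2%, and there they were the sparsest kind, at 3.65 per Mb against 6.43 shared and 7.55 replicate 2 only peaks per Mb. The excess of replicate 1 only peaks over the other 2 kinds was therefore seen in the larger region, and not in the smaller region or on the rest of chromosome IV, where 55 peaks stood beside 111 shared ones.

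**Figure D1:**
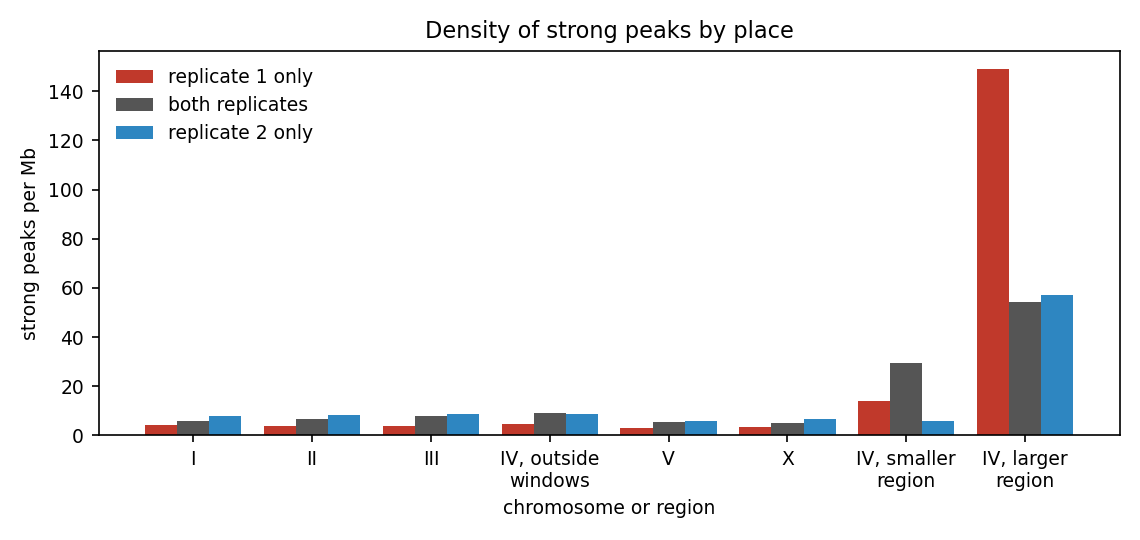
Strong peaks per Mb (vertical axis) on chromosomes I, II, III, V and X, on chromosome IV outside the windows, and in its 2 regions rich in 21U-RNA genes, for replicate 1 only peaks, peaks of both replicates and replicate 2 only peaks (bar colours). The replicate 1 only bar reaches 149 per Mb in the larger region and at most 14.1 at the other places plotted.

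Along the larger region the replicate 1 only peaks were spread over nearly its whole length. The 37 windows held from 0 to 29 of them, with a median of 15.0. They outnumbered the replicate 2 only peaks in 35 windows and the shared peaks in 34. The windows with most of them, 29, 28 and 27, held 407, 486 and 397 annotated 21U-RNA genes, while the first window, with 221 such genes, held 0. Across the 37 windows their number followed the number of 21U-RNA genes with a Spearman rho of 0.84, beside 0.42 for shared and 0.57 for replicate 2 only peaks. These windows are neighbours on 1 chromosome that share both libraries, so rho is a description. Across the 17 windows of the smaller region, which held at most 4 replicate 1 only peaks each, rho was 0.23.

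**Figure D2:**
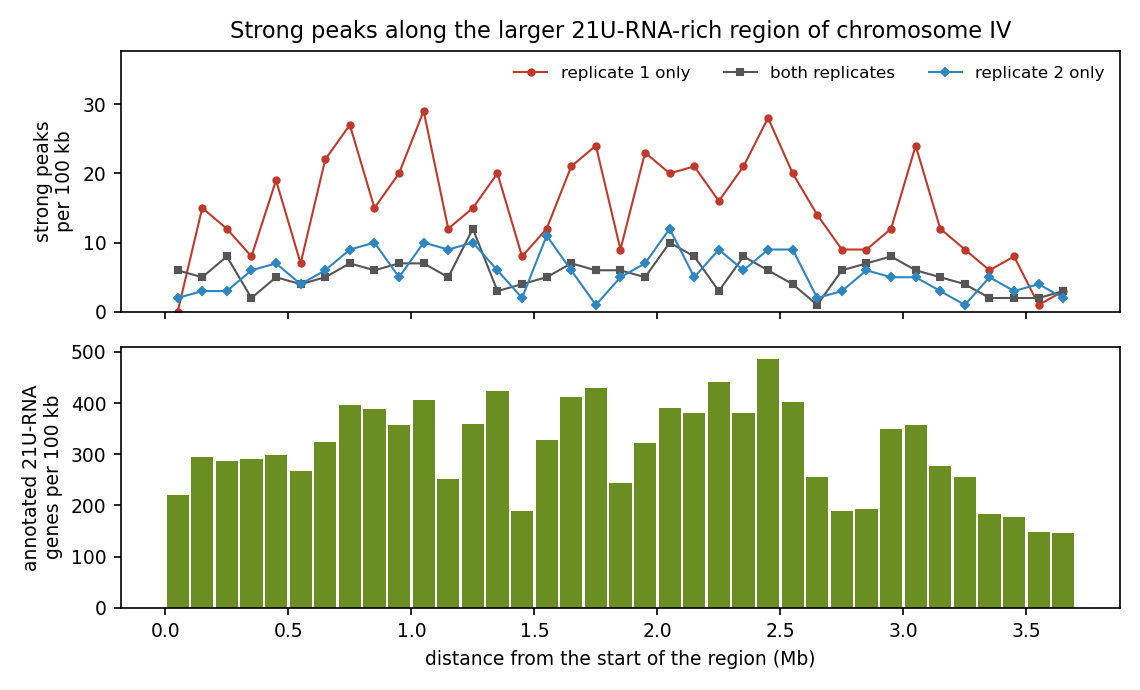
Upper panel: strong peaks in each 100 kb window (vertical axis) against distance from the start of the larger region in Mb, for the 3 kinds of peak. Lower panel: annotated 21U-RNA genes in the same windows. Replicate 1 only peaks range from 0 to 29 per window and rise and fall with the genes in the lower panel.

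Most of the peaks lay beside a 21U-RNA gene. A peak was counted beside a gene when its summit was within 300 bp of the annotated 5' end, and 538 of the 921 (58.4%, 55.2 to 61.6%) lay beside a 21U-RNA gene, against 37.7% of all strong replicate 1 peaks. Inside the windows the share was 93.2% (536 of 575), beside 49.6% of shared and 86.4% of replicate 2 only peaks. Because such genes are dense there, 60.6% of all positions in the windows also lie that close to one. Of the 15363 annotated 21U-RNA genes, 1936 (12.6%) had a replicate 1 only peak within 300 bp, beside 396 (2.58%) with a shared peak and 691 (4.50%) with a replicate 2 only peak. In the larger region these were 1902 of 11510 genes (16.5%), and in the smaller region 32 of 2614 (1.22%). One peak often covered several of these genes: the median replicate 1 only peak of the larger region had 3.00 within 300 bp (mean 3.56), and the average position there had 1.87.

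The summits stood closer to 21U-RNA 5' ends than the density of those genes gives. In the larger region 47.7% of replicate 1 only summits lay within 50 bp of one and 76.2% within 100 bp. Of all positions there, 22.3% and 38.9% did so. Points 1000 bp to either side of the same summits gave 31.6% and 55.4%, which lies between, so the neighbourhoods of these peaks were rich in such genes and the summits richer still. Replicate 2 only summits of the larger region gave 51.2% and 72.0%, near the replicate 1 only values, while shared summits gave 23.0% and 40.5%, near those of all positions. Peaks of the larger region found strong in a single replicate thus gave close values whichever replicate it was, and their numbers were 551 and 211. No test was made of these differences.

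**Figure D3:**
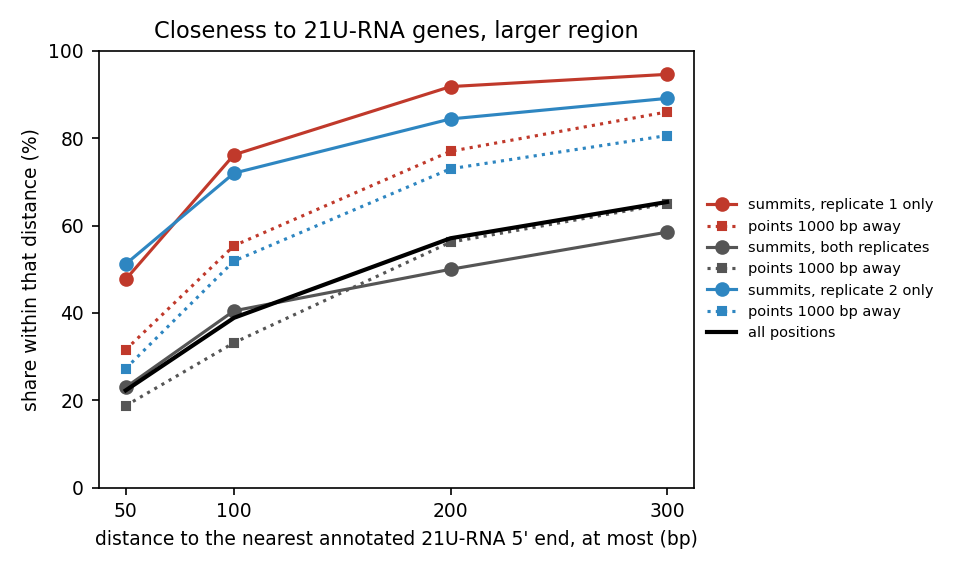
Share of points in the larger region (vertical axis, %) that lie within 50, 100, 200 or 300 bp (horizontal axis) of the nearest annotated 21U-RNA 5' end. Solid lines with circles are summits, dotted lines with squares are points 1000 bp to either side of those summits, and the black line is all positions. Replicate 1 only and replicate 2 only summits lie above every other line, and shared summits lie near the black line.

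The core motif followed the same pattern. CTGTTTCA was found on either strand within 100 bp of the summit in 221 of the 921 peaks (24.0%, 21.3 to 26.9%), beside 15.0% of all strong replicate 1 peaks, 5.47% of shared and 8.96% of replicate 2 only peaks. Of all genome stretches of that length 2.02% hold it, and of those in the windows 16.5%. Inside the windows it was found in 38.1% of replicate 1 only, 36.7% of replicate 2 only and 17.6% of shared peaks. Points 1000 bp to either side gave 23.0%, 18.3% and 15.2%. Of the 221 replicate 1 only peaks with the motif, 196 (88.7%, 83.8 to 92.5%) had an annotated 21U-RNA 5' end on the same strand within 60 bp downstream. In 195 of those 196 the distance was 30 to 50 bp, with a median of 39.0 bp and quartiles of 38.0 and 40.0 bp. The other kinds of peak were alike. Of shared and replicate 2 only peaks with the motif, 80.9% and 79.8% had such a 5' end, at median distances of 38.5 and 39.0 bp. The same share over all copies of the motif in the windows was not measured. Whether the share or the spacing is particular to peaks therefore cannot be told. Outside the windows 2 of 346 peaks held the motif, and in neither was it followed by such a gene.

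Of the 20 strongest replicate 1 only peaks, 13 were assigned to a 21U-RNA gene, 2 to snRNA genes, 1 to a tRNA gene and 4 to no gene. The strongest (IV:16181322-16181442) lay 139 bp downstream of the 5' end of 21ur-12855, between genes. Its authors' signal was 52.4 in replicate 1, where it ranked 157, and 11.2 in replicate 2, where the nearest summit, 36 bp away, ranked 5755. In the pooled list its signal was 64.6 at rank 422. The peak beside 21ur-7044 had a signal of 38.7 in replicate 1 (rank 207), 11.5 in replicate 2 (rank 5516) and 47.6 in the pooled list (rank 705). Next in rank, the peak beside 21ur-11813, in an intron of rga-5, had 38.2 in replicate 1 (rank 212) and 15.2 in replicate 2 (rank 3353). Signals of the 2 lists are not on a known common scale, so only the ranks can be set side by side. All 3 ranked far lower in replicate 2. Over all 921 peaks the replicate 1 signal ran from 13.3 to 52.4 with a median of 16.5, and the ranks from 157 to the last one kept, with a median of 1126, so none was among the very strongest of its own list.

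In the smaller region the strongest replicate 1 only peak (IV:5565135-5565494), 189 bp downstream of the 5' end of 21ur-3329, had a signal of 22.9 in replicate 1 (rank 530.0) and 12.2 in replicate 2 (rank 4950). The 24 peaks there had a median signal of 15.7, beside 16.7 for the 551 of the larger region. Of the 24, 15 (62.5%) lay within 300 bp of a 21U-RNA 5' end, against 50.2% of positions there.

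Genes of other short non-coding RNAs lay beside few of the replicate 1 only peaks. Beside an snRNA, spliced leader (SL) RNA, tRNA or small nucleolar RNA (snoRNA) gene lay 45 of the 921 (4.89%, 3.59 to 6.48%), against 12.7% of all strong replicate 1 peaks, 21% of shared and 7.90% of replicate 2 only peaks. None lay beside an SL RNA gene (0 of 921, upper bound 0.400%), while 19 shared peaks did. These genes make the short leader that is spliced onto the start of many worm mRNAs. Inside the windows 4 of 575 replicate 1 only peaks lay beside a gene of these 4 classes, against 58 of 250 shared peaks. Outside the windows the shares were 11.8% (41 of 346) for replicate 1 only, 20.2% for shared and 10.3% for replicate 2 only peaks. The classes differed there: tRNA genes lay beside 6.36% of replicate 1 only peaks (4.03 to 9.47%), 3.44% of shared (2.14 to 5.21%) and 7.12% of replicate 2 only peaks, whereas snRNA genes lay beside 2.02%, 5.57% and 0.279% and snoRNA genes beside 3.47%, 9.02% and 2.93%. Of all positions outside the windows, 0.330% lie that close to a tRNA gene, 0.0519% to an snRNA gene and 0.205% to a snoRNA gene. Each kind of peak was above these shares. Inside the windows tRNA genes lay beside 0.696% of replicate 1 only peaks, against 0.443% of positions.

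Only 7 peaks were assigned to snRNA genes, which encode RNAs of the spliceosome, with replicate 1 signals from 13.7 to 38.0. The peak beside ZK897.4, the strongest but one of the 7, in an intron of unc-31, had 33.3 in replicate 1 (rank 263) and 20.6 in replicate 2 (rank 1796), just below the limit of the strong list. The peak beside F08G2.11 had 27.1 (rank 366) and 19.5 (rank 1986). Within 100 bp of the summit, 15.7% and 43.4% of the 36-base words of these 2 peaks, in that order, occur elsewhere in the genome. Whether reads there were placed on other copies was not tested. The summit beside ZK897.4 lay 149 bp downstream of the 5' end, with a shared summit just over 200 bp away. Offsets of the 7 summits from the 5' end had quartiles of -50.0 and 138 bp, and those of the 44 shared snRNA peaks -56.5 and -30.5 bp, upstream of it.

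The 26 peaks assigned to tRNA genes had a median signal of 15.8 in replicate 1, and 24 of them had a replicate 2 summit at a median rank of 3857. The strongest, 198 bp upstream of B0491.t2 (II:11334226-11334343), had a signal of 32.4 in replicate 1 (rank 278) and 12.0 in replicate 2 (rank 5089). The 12 peaks assigned to snoRNA genes, whose RNAs guide chemical changes of ribosomal RNA, had a median signal of 17.1. The strongest of these lay 127 bp upstream of F09G2.14 and ranked 347 in replicate 1 and 2081 in replicate 2. The next were beside F30H5.4 (ranks 540 and 2950) and C26C6.13 (ranks 590 and 2491). A single peak was assigned to a microRNA gene, mir-229, with ranks of 1740 and 3671, and 3 were assigned to pseudogenes, of which the strongest stood beside fbxa-129 (ranks 1207 and 25563).

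Protein-coding genes were the second largest class. Their 5' ends lay within 300 bp of 137 replicate 1 only peaks (14.9%, 12.6 to 17.3%), beside 26.3% of all strong replicate 1 peaks, 38.5% of shared and 39.8% of replicate 2 only peaks. Outside the windows, where 11.7% of positions lie that close, the shares were 30.9%, 45.9% and 50.3%. The 117 peaks assigned to such genes had a median offset of -134 bp, upstream of the 5' end, as the shared ones had (-152 bp). The strongest stood beside Y18D10A.4, with a signal of 26.8 in replicate 1 (rank 371) and 7.48 in replicate 2 (rank 10264). The peak 167 bp upstream of farl-11 ranked 372 in replicate 1 and 2173 in replicate 2, and that beside gldi-8 ranked 377 and 1791. Both rpl-1, a ribosomal protein gene, and its neighbour Y71F9AL.9 had a replicate 1 only peak, with summits 206 bp apart. The nearest replicate 2 summit was the same for both, 42 and 164 bp away, and ranked 1783, the highest rank found. The 2 peaks are therefore not separate cases.

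Outside the windows 48.8% of the replicate 1 only peaks lay beside no annotated 5' end, against 28.7% of shared and 33.8% of replicate 2 only peaks. Of all positions there, 11.7% lie beside a protein-coding gene, 4.09% beside an other non-coding RNA gene and at most 1.23% beside any other class. Most positions outside the windows thus also lie beside no 5' end. The strongest such peak (IV:7039722-7040081), printed above, lay between genes with a signal of 37.8 in replicate 1 (rank 217). The full replicate 2 list had no summit within 200 bp of it, its nearest being 302 bp away, and the pooled list had one at rank 1863. Next, on chromosome V, a peak between genes (V:14347284-14347643) had 33.1 in replicate 1 (rank 267) and 6.71 in replicate 2 (rank 11881). A peak in an intron of ain-2, the strongest on chromosome I, ranked 313 in replicate 1 and 3222 in replicate 2.

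Genes of the 21U-RNA pathway were looked up in turn. Of all 19973 protein-coding genes, 160 (0.801%) had a replicate 1 only peak within 300 bp of the 5' end, which is the background for the counts of these short lists. Of 13 genes listed for SNAPc and 21U-RNA transcription, 12 were matched in the annotation and 0 had a replicate 1 only peak. At snpc-4 itself, which is also the tagged gene of the transgene, a shared peak ranked 271 in replicate 1 and 130 in replicate 2, and snpc-3.4, another SNAPc subunit gene, had a replicate 2 only peak. Of 13 genes of 21U-RNA processing and function 1 had one, hrde-1, a nuclear Argonaute gene of the germ line, with a signal of 14.1 at rank 1582 and no replicate 2 summit beside it. Of 16 genes of germ granules and small RNA amplification 1 had one, pgl-1, a P granule component, with 21.9 at rank 591 in replicate 1 and 14.3 at rank 3744 in replicate 2. The marker gene unc-119 had none.

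The peaks of the larger region were close neighbours. Their median distance to the nearest other replicate 1 only peak was 1746 bp, and 54.4% had another within 2000 bp. Outside the windows the median distance was 57045 bp and 6.07% had another that near. Shorter distances go with higher density, which was 149 per Mb in the larger region and 3.65 per Mb outside. Whether the peaks were closer than their density gives was not tested. Chains with gaps of at most 2000 bp numbered 134 and held 325 of the 921 peaks, and 122 of them lay in the larger region. The longest held 6 peaks in 5663 bp (IV:16665004-16670667), all within sta-1, a STAT transcription factor gene, with no other strong peak inside; all 6 lay beside a 21U-RNA gene and 5 had a replicate 2 summit. Long genes of the region held several each. The gene Y105C5A.15, of 33353 bp, held 11, together with 5 shared and 4 replicate 2 only peaks. Y64G10A.7, anoh-2, egl-23, jac-1 and sorb-1, of 16848 to 29013 bp, held 8 each. These 5 genes also held 0 or 1 shared and 0 to 4 replicate 2 only peaks each. These host genes were picked after their counts were seen.

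By annotation, 56.7% of the 921 summits lay between genes and 26.3% in introns, where 33.3% and 34.0% of all genome positions lie. A further 9.23% fell inside a small RNA gene, against 0.373% of positions and 7.86% of all strong replicate 1 peaks. Inside the windows, where 4.27% of positions lie in such a gene, the shares were 12.3% of replicate 1 only, 16% of shared and 12.2% of replicate 2 only peaks. Of the 921 summits 2.71% fell in coding exons, against 24.6%. Base composition moved with place. Within 100 bp of the summit the median G and C content was 28.4% for the 575 peaks in the windows, below the 32.7% of all bases there, and 44.3% for the 346 outside, above the 35.6% of all bases outside. Shared peaks had 37.1% in the windows and 44.3% outside, and replicate 2 only peaks 30.3% and 41.8%. Inside the windows the peaks of a single replicate were thus poorer in G and C than the shared ones. Whether base composition had a part in which peaks were strong in replicate 1 was not tested. At least one 36-base word found elsewhere in the genome was held by 9.99% of replicate 1 only, 17.9% of shared and 10.5% of replicate 2 only peaks, and none of the 921 consisted of such words alone. Inside the windows the shares were 6.43%, 26.8% and 11.3%, and outside they were 15.9%, 14.3% and 10.2%.

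Other short motifs were searched on both strands in the same stretches. GGTTCGA, which occurs in the internal promoter of tRNA genes, was found in 3.15% of replicate 1 only peaks, beside 5.47% of shared and 4.27% of replicate 2 only peaks and 1.45% of genome stretches of that length. CGGAACCC was found in 2.61%, against 0.285%, beside 8.60% of shared peaks and 1.07% of replicate 2 only peaks. AGACGCAG was found in 4.78%, beside 9.07% of shared and 10.5% of replicate 2 only peaks and 1.06% of genome stretches. AAACGCGC was found in 1.85%, beside 5.81%, 6.62% and 0.430% in the same order. Over all places, all 4 motifs were thus above the genome share and below the share of shared peaks. For GGTTCGA the order of replicate 1 only and shared peaks differed by place. Inside the windows it was in 1.39% of replicate 1 only and 14.0% of shared peaks. Outside the windows the order was reversed, at 6.07% of replicate 1 only, 1.97% of shared and 5.31% of replicate 2 only peaks. CGGAACCC (5.20% and 9.34%) and AAACGCGC (4.34% and 6.72%) stayed below the shared peaks outside the windows. Outside the windows AGACGCAG was in 10.1% of replicate 1 only, 10.7% of shared and 13.0% of replicate 2 only peaks.

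Most of the peaks had a summit of lower rank within 200 bp in the full replicate 2 list, which extends to weak peaks. The share of random positions with such a summit was not measured, so part of these matches may come from position alone. In the full replicate 2 list of 30000 peaks, 761 of the 921 (82.6%, 80.0 to 85.0%) had a summit within 200 bp, against 91.0% of all strong replicate 1 peaks, a figure that includes the shared ones by construction. The ranks of these summits ran from 1783 to 29930, with a median of 4905 and quartiles of 3086 and 9036. Of the 921, 251 (27.3%) ranked between 1782 and 3562, 311 (33.8%) between 3563 and 8905, 146 (15.9%) between 8906 and 17810 and 53 (5.75%) below that, and 160 (17.4%) had no summit. The replicate 2 signals were 2.60 to 20.6 with a median of 12.3, in a list whose median was 5.53 and whose lowest value among the strong peaks was 20.7. The mirror comparison was alike: 751 of the 937 replicate 2 only peaks had a summit among the 20730 of replicate 1, at a median rank of 4429, though ranks in lists of different length are not directly comparable.

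The share with a replicate 2 summit nearby differed by place. Replicate 2 summits were dense in the windows, which held 6176 of the 30000 in 5.40 Mb, so matches by position alone are likelier there. Inside the windows 453 of 575 peaks (78.8%, 75.2 to 82.1%) had a replicate 2 summit, at a median rank of 5539. Outside they were 308 of 346 (89.0%, 85.2 to 92.1%), at a median rank of 4159. In the smaller region 8 of 24 had none, and the other 16 had a median rank of 10205. Among classes, peaks assigned to 21U-RNA genes had a median rank of 5539 over the 421 with a summit, those of protein-coding genes 4257 over 108, those of tRNA genes 3857 over 24 and those of snoRNA genes 2944 over 10. The lowest ranks belonged to a peak 10 bp upstream of 21ur-11464 (rank 1034 in replicate 1, 29930 in replicate 2) and to one in an intron of hsp-90, a chaperone gene (ranks 1461 and 29854). Among the strongest peaks with no summit were those beside W01D2.9, a non-coding RNA gene (rank 296), 21ur-5461 (rank 308), 21ur-4383 (rank 364) and 21ur-10051 (rank 423), whose nearest replicate 2 summits were 250 to 336 bp away.

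**Figure D4:**
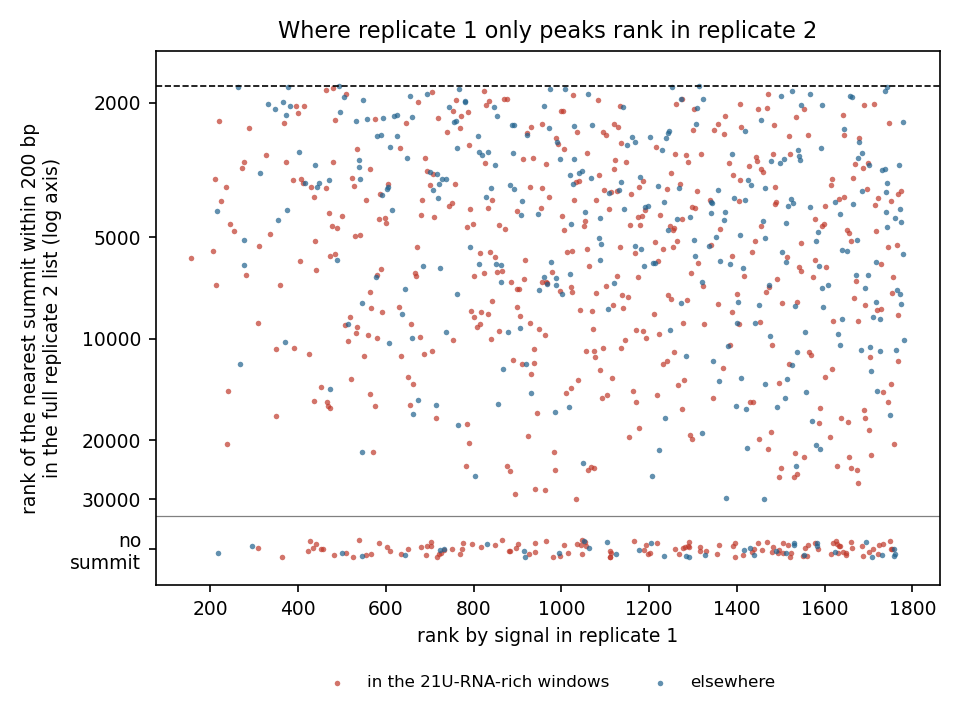
Each point is a replicate 1 only peak, placed by its rank in replicate 1 (horizontal axis) and by the rank of the nearest summit within 200 bp in the full replicate 2 list (vertical log axis, strongest at the top); colours mark peaks inside and outside the 21U-RNA-rich windows. The dashed line is the rank of the last strong peak, and the 160 peaks below the grey line have no such summit. The ranks of the other 761 extend from 1783 to 29930.

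In the pooled list, made by the authors from both replicates, 883 of the 921 peaks (95.9%) had a summit, beside 97.7% of all strong replicate 1 peaks, at a median rank of 2542. The optimal list, whose peaks are the strongest of the pooled list, held 288 (31.3%, 28.3 to 34.4%), beside 63.7% of all strong replicate 1 peaks, 98.5% of shared and 58.3% of replicate 2 only peaks. Inside the windows it held 23.3% of replicate 1 only and 40.3% of replicate 2 only peaks, and outside 44.5% and 63.8%. Of the 20 strongest, 19 had an optimal summit. Since replicate 1 contributed to the pooled reads, these lists are not independent of it.

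The replicates ordered the 21U-RNA-rich windows differently within their own lists. Among the 100 strongest peaks 38.0% lay in the windows in replicate 1 and 31.0% in replicate 2, with intervals of 28.5 to 48.3% and 22.1 to 41.0% that overlap. Over the next 150 peaks the shares were 46.7% and 40.0%, again with overlapping intervals. Between ranks 251 and 500 they were 40.4% and 18.8%, between 501 and 1000 they were 47.2% and 20.2%, and from there to the last strong peak they were 48.7% and 28.9%. Just below the limit, to rank 3000, they were 44.4% (41.6 to 47.2%) and 37.2% (34.4 to 39.9%), and between ranks 3001 and 5000 they were 40.0% and 38.9%. Further down replicate 2 had the higher share: 28.9% and 31.5% between ranks 5001 and 10000, and 15.0% and 17.8% between 10001 and 20000. Over the whole relaxed lists the windows held 25% of the peaks in replicate 1 and 20.6% in replicate 2. Those 2 values are not directly comparable, because the replicate 2 list is longer and its ranks 20001 to 30000 had 11.3% in the windows. In both lists most peaks in the windows ranked below the strong ones, which held 825 of 5188 in replicate 1 and 465 of 6176 in replicate 2.

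**Figure D5:**
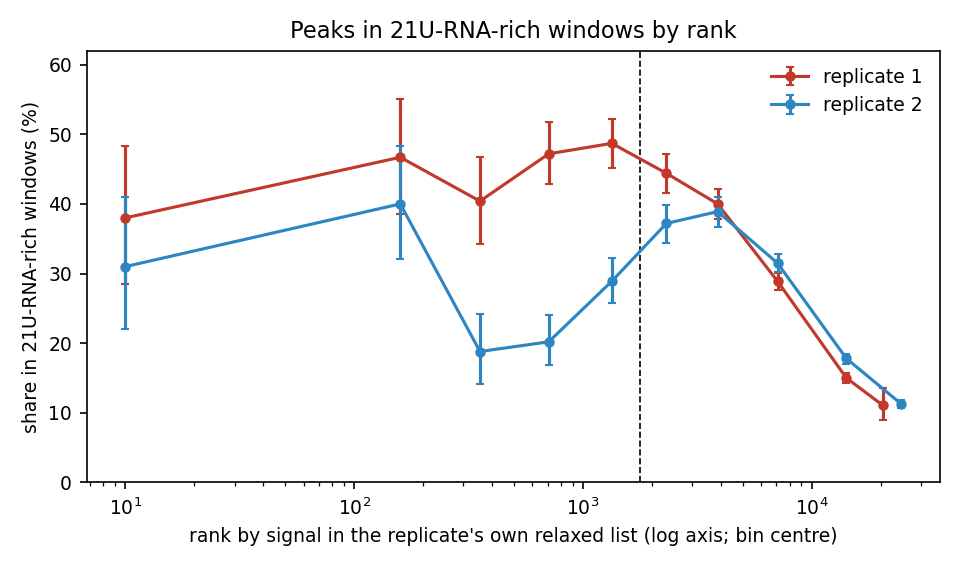
Share of peaks that lie in the 21U-RNA-rich windows (vertical axis, %) by rank in each replicate's own relaxed list (log axis, 1 point per rank bin), with 95% Clopper-Pearson intervals that cover the counting of peaks only. The dashed line is the rank of the last strong peak. Replicate 1 lies above replicate 2 from rank 251 to that line, at 40.4 to 48.7% against 18.8 to 28.9%, and they stand at 40.0% and 38.9% at ranks 3001 to 5000.

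At the edges of the rule, the peaks beside 21ur-30 and 21ur-9602 were taken with a strong replicate 2 summit 1 bp beyond the limit of 200 bp, and that beside 21ur-370 with one at 202 bp. The summit at 202 bp ranked 112 in replicate 2, while the peak beside 21ur-370 ranked 241 in replicate 1. The replicate 2 summit nearest to that peak, 2 bp away, ranked 14273. Replicate 2 ranks given here are those of the nearest summit, so a stronger summit can lie close by. Shared peaks beside the snoRNA gene W03B1.17, the snRNA gene F07C6.5 and 21ur-4752 were left out at 200 bp. In all, 18 of the 921 had a strong replicate 2 summit at more than 200 and up to 250 bp and 27 at 251 to 500 bp. The weakest peak taken, beside C30B5.2, was the last of its list kept, with a signal of 13.3, and the first peak left out also had 13.3.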

How the data were processed

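Peak lists of 2 biological replicates of 1 group were analysed, with 4 lists per build on ce11 and ce10: the relaxed list of either replicate, that of their pooled reads, and the optimal list that passed an IDR filter (a limit on irreproducible discoveries). Per the labels the library fragments were 150 to 350 bp. The authors deposited for each peak a signal value and a -log10 q value. The signal ranked peaks within a list. The deposited -log10 q value took 1 value over the 1781 strongest peaks of each list and was not used. The aligner, peak caller, normalization and IDR threshold are not given in the sources used here, and read depth is unknown.

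Summits were matched within 200 bp, genes were taken from Ensembl release 115 on the same assembly, and a gene lay beside a peak when its 5' end was within 300 bp of the summit. Of 2778 genes with no name in that annotation, 2758 were named by position from RefSeq. Each peak was assigned to 1 class in the order snRNA, SL RNA, tRNA, rRNA, snoRNA, miRNA, 21U-RNA, protein-coding, other non-coding RNA and pseudogene. Shares carry 95% Clopper-Pearson intervals. Matching was tested on simulated data. Python 3.11.15, numpy 2.4.6, pandas 2.3.3 and scipy 1.17.1 were used. One snRNA gene peak that the naming rule covers is counted but not reported here. With 1 group no test between samples was possible, and none was made between kinds of peak.

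The peaks, gene lists and measures were chosen with earlier results of these data known. Named genes were those of the 20 strongest peaks, up to 3 per class, the strongest per region and chromosome, the highest and lowest in replicate 2, those at the edges of the rule, and listed genes with a peak. Alternatives were other matching distances, overlap of intervals, a shorter list, the ce10 lists, and other limits for windows, genes and motif.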

Additional observations from a re-analysis of the deposited data

How the results depend on the processing

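Of the 64 alternative values of 10 results, 45 stayed within the interval of the value reported (for the number of peaks, within 1.5 times). Matching at 100 bp, at 500 bp or by overlap of intervals, and the ce10 lists, moved 1 value: 35% of the peaks had an optimal summit with matching at 100 bp. With lists of the 890 strongest peaks, 398 replicate 1 peaks had no counterpart, of which 88.4% had a summit in the full replicate 2 list, 97.7% in the pooled list and 62.6% in the optimal list. Wider and narrower limits moved shares by their construction: a 5' end within 150 bp gave 53.7% beside a 21U-RNA gene and 6.84% beside a protein-coding gene, and within 1000 bp 34.1% beside a protein-coding gene. The motif was found in 13.5% within 50 bp and in 31.3% within 150 bp.

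Without replicate 2 no peak can be set apart, so the number of peaks has no value of its own (it is the length of the list kept), and the shares are those of all strong replicate 1 peaks: 55.6% on chromosome IV, 46.3% in the windows, 37.7% beside a 21U-RNA gene, 26.3% beside a protein-coding gene, 12.7% beside an snRNA, SL RNA, tRNA or snoRNA gene, 91.0% in the full replicate 2 list, 97.7% in the pooled list, 63.7% in the optimal list and 15.0% with the motif. Without replicate 1 there are no such peaks.

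No paired analysis was possible because there is 1 group. Depth is unknown, so whether a peak is missing from replicate 2 for want of reads cannot be told.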
